A study of Mus musculus with 354 samples.

Results

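Tecta, Tectb, Otog, Otogl, Otoa, Ceacam16, Epyc, Coch and Otos are 9 genes for proteins that the cochlea lays down outside its cells. They were chosen by name, 9 of the 55367 genes in the count files, and all 9 have a row there. Their transcripts were followed in 354 single cells of newborn mouse cochlea, 177 per genotype. Each cell was 1 GFP+ cell that excluded the dead-cell stain DAPI, sorted into 1 well, and each genotype filled 3 plates of 59 such wells. CA-ERBB2 mice carried 3 alleles. Fgfr3-iCre is the tamoxifen-dependent driver, ROSA-floxed-rtTA/GFP gives the Cre-positive cells GFP and rtTA, and TetON-CAERBB2 encodes a constitutively active form of the receptor ERBB2 that doxycycline switches on. Control mice were littermates that had the driver Fgfr3-iCre and the reporter ROSA-floxed-rtTA/GFP but not the active receptor. The protocol, which all samples share, gave 2 doses of tamoxifen at 75 mg/kg on P0 and P1 and doxycycline at 100 mg/kg on P2, with collection on P3. Pups were pooled for each plate and their sex was not determined. Fgfr3-iCre drives recombination in Deiters, pillar and Hensen cells and in outer hair cells, more toward the apex, so that the sorted cells are a choice of cell types and not the whole duct. The question put to these genes was how much of each both genotypes made and in which cells.

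The tectorial membrane is a ribbon of collagen and glycoprotein that lies over the hair bundles of the organ of Corti and is secreted by the epithelium beneath it before hearing begins. Tecta and Tectb encode alpha- and beta-tectorin, its main non-collagenous glycoproteins. Otog and Otogl encode otogelin and otogelin-like, large mucin-related proteins of the acellular membranes of the inner ear. Otoa encodes otoancorin, which anchors the membrane to the interdental cells of the spiral limbus, and Ceacam16 encodes a partner of alpha-tectorin. Epyc encodes epiphycan, a small leucine-rich proteoglycan. Coch and Otos encode cochlin and otospiralin, which are best known from fibrocytes of the spiral limbus and the lateral wall.

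In the GENCODE annotation of GRCm38 the members lie apart from each other. The largest transcribed region is Otogl (chr10:107760531-107912134, minus strand, 58 exon blocks), and the smallest is Otos (chr1:92644218-92648841, minus strand, 5 exon blocks). Tecta lies at chr9:42329619-42399929 (minus), Tectb at chr19:55180733-55196313 (plus), Otog at chr7:46240987-46311434 (plus) and Coch at chr12:51593341-51605771 (plus). Otoa lies at chr7:121081650-121163097 (plus), Ceacam16 at chr7:19852097-19861299 (minus) and Epyc at chr10:97644068-97682454 (plus). The last exon region of Epyc shares 1041 bases with Gm10754, a long non-coding RNA on the opposite strand. Tecta shares 304 exon bases with the antisense gene Gm47629, and Ceacam16 shares 380 with Gm19345.

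Promoter windows from RefSeq (GRCm38.p6) were at hand for 7 of the 9 members, all but Otogl and Ceacam16. The 150 bases before the transcription start are printed for 3 of the 4 members whose levels moved together from cell to cell (Otogl is the other) and for Epyc, which kept its own pattern (values follow). They run 5′ to 3′ in the direction of the gene, and capitals mark a match to TATANA or AACAAT.
Tectb, chr19:55180576-55180725, plus strand: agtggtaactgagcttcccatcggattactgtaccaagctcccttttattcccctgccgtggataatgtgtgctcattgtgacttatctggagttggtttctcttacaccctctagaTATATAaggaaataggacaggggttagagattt
Tecta, chr9:42399948-42400097, minus strand: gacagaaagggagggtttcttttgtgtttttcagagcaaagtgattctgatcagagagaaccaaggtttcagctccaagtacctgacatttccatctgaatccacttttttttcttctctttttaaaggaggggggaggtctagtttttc
Otog, chr7:46240837-46240986, plus strand: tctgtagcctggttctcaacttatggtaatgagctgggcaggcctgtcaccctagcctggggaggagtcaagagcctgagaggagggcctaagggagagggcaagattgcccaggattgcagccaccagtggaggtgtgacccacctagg
Epyc, chr10:97643918-97644067, plus strand: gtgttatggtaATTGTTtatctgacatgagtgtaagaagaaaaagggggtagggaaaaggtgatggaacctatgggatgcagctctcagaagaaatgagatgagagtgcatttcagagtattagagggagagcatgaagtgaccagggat
The 4 motifs were TATAAA, the looser TATANA (which contains it), AACAAT as the core bound by SOX factors, and TGANTCA as the core bound by AP-1, each sought on both strands. Tectb held TATATA 33 to 28 bases before its start, a palindrome that is read on both strands. Windows with TATANA made up 13.3% of 32851 promoter windows of the same length, against 7.57% with TATAAA. Epyc held AACAAT on the reverse strand, 139 to 134 bases before its start, a motif found in 5.31% of all windows. TGANTCA, found in 4.24% of all windows, and TATAAA matched in no member window, and the printed Tecta and Otog windows held none of the 4 motifs. A second RefSeq start of Tecta, farther upstream, and a second start of Epyc, within the gene, held none either.

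The files held between 1443 and 5178221 counts per cell, and the medians were 2842085 (CA-ERBB2) and 2885635 (Control). Cells under 100000 counts numbered 2 of 177 in CA-ERBB2 and 33 of 177 in Control, 23 of them on Control plate 2. Plate 1 of each genotype stood apart, with a median of 10198 genes per CA-ERBB2 cell and 8679 per Control cell against 1742 to 2954 on the other 4 plates. Wells A12 to D12 were richest in genes on every plate, with medians between 13145 and 17397, and the comparisons of genotypes were also run without them. Of 21 cell type lists, 18 had summed levels that overlapped between genotypes, the supporting cell list among them (156 to 733 CPM, counts per 1000000 counts of the plate, in CA-ERBB2 and 198 to 700 in Control). The defining hair cell genes were close to absent on CA-ERBB2 plate 3, where 3 of 4 were at 0. The other 3 lists were lower on every CA-ERBB2 plate. The lateral greater epithelial ridge 3 list summed to 1649 to 2457 CPM on Control plates and to 749 to 1087 on CA-ERBB2 plates, and the outer sulcus list to 1543 to 2263 and 727 to 1263. The blood list (Hbb-bs, Hba-a1 and Hba-a2) summed to 3457 to 6405 CPM on Control plates and to 16.8 to 397 on CA-ERBB2 plates. Erbb2, the receptor gene, stood at 106, 46.0 and 120 CPM in CA-ERBB2 plates and at 19.8, 3.24 and 12.4 in Control plates after TMM scaling (adjusted p = 0.774, edgeR).

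Tectb was the most abundant member per length of exon. Its level was 586 ± 190 CPM per kilobase of exon over the 3 Control plates and 184 ± 90.7 over the 3 CA-ERBB2 plates (SD, n = 3). In Control plates it was followed by Epyc at 311 ± 24.2, Coch at 176 ± 140, Tecta at 89.8 ± 85.8 and Otos at 59.3 ± 8.77 CPM per kilobase. Otogl (18.6 ± 13.2), Otog (18.2 ± 14.4) and Otoa (6.85 ± 10.6) came last among those detected in both genotypes. Neighbours in this order overlapped over the Control plates, with 2 exceptions: Tectb (369 to 726) lay above Epyc (287 to 336), and Otos (53.9 to 69.4) above Otogl (8.05 to 33.5).

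The members were carried by few cells. For each gene, the 36 cells of 354 with the most counts held 89.7% of the Tecta counts, 88.1% of Tectb, 89.3% of Otog, 84.8% of Otogl, 88.9% of Epyc, 93.6% of Coch, 95.2% of Otos and 99.6% of Otoa. A single cell of Control plate 1 held 59.2% of that plate's Tecta counts, and a single cell of CA-ERBB2 plate 3 held 90.7% of that plate's Otogl counts. The number of cells that made up 90% of a plate's Tecta counts ranged from 3 on Control plate 1 to 22 on CA-ERBB2 plate 1. The share of cells with a count is therefore given as well as the plate level.

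Tecta stood at 1308, 36.5 and 651 CPM of the plate total on Control plates 1 to 3 and at 408, 93.2 and 157 CPM on CA-ERBB2 plates 1 to 3. The genotypes overlapped, since the lowest plate of all was Control plate 2. Tectb stood at 2532, 1411 and 2773 CPM on Control plates and at 689, 362 and 1054 CPM on CA-ERBB2 plates. All 3 Control plates were above all 3 CA-ERBB2 plates, a split that 5.11% of the 21416 genes tested showed in this direction and 2.78% in the other. With TMM scaling, which multiplies the plate totals by factors of 0.688 to 1.32, Tectb overlapped, since CA-ERBB2 plate 3 came to 1536 CPM and Control plate 2 to 1284. Its log2 fold change, CA-ERBB2 over Control, was -1.27 (SE 0.61, adjusted p = 0.911), and that of Tecta was -1.38 (SE 0.91, adjusted p = 0.918), both from edgeR's quasi-likelihood test over all genes. With 1 plate left out, Tecta came to -0.68 without Control plate 1 and Tectb to -2.03 without CA-ERBB2 plate 3.

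Otog stood at 332, 35.1 and 199 CPM on Control plates and at 270, 35.2 and 49.4 CPM on CA-ERBB2 plates, ranges that lie inside each other almost wholly. Its log2 fold change of -0.61 (SE 0.78) became 0.12 once shallow cells (under 100000 counts) and those at 20% mitochondrial counts or above were dropped, and it ranged from -1.49 (without CA-ERBB2 plate 1) to -0.14 (without Control plate 1) with 1 plate left out. Otogl stood at 126, 70.6 and 293 CPM on Control plates and at 122, 50.8 and 11.9 CPM on CA-ERBB2 plates, which overlapped too. Its log2 fold change of -1.40 (SE 0.75, adjusted p = 0.911, edgeR) was -0.45 without Control plate 3.

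Otoa was the rarest member seen in both genotypes. It stood at 161, 2.66 and 9.94 CPM on Control plates and at 9.56, 2.25 and 0.0457 CPM on CA-ERBB2 plates. Control plate 1 alone was high, and 46.3% of its Otoa counts came from 1 cell. The log2 fold change of -3.74 (SE 1.62, adjusted p = 0.911, edgeR) was -0.89 without that plate. Ceacam16 was barely seen at this age: 12 counts in all, 5 in 1 cell of CA-ERBB2 plate 1 and 7 in 1 cell of CA-ERBB2 plate 2. No count fell in 177 Control cells, so that up to 1.69% of such cells could hold one at this depth (0 found), and it did not pass the filter on low counts.

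**Figure D1:**
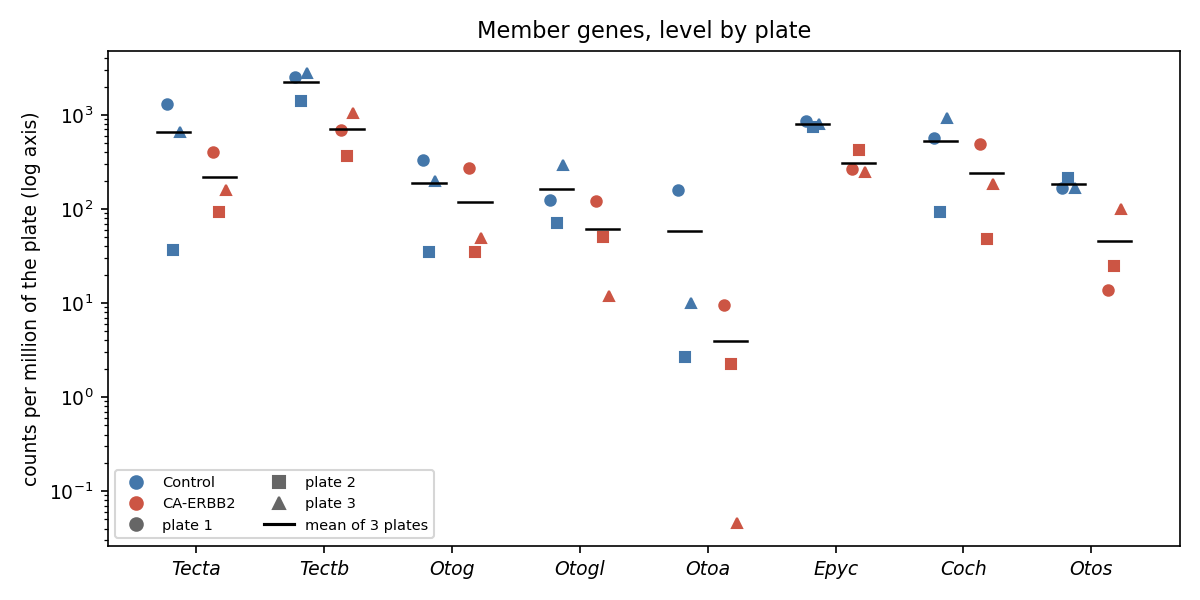
Level of 8 members on each plate, in CPM of the plate total on a log axis, with Control in blue and CA-ERBB2 in red. Symbols mark plates 1 to 3 and lines the mean of 3 plates. Tectb, Epyc and Otos have all Control plates above all CA-ERBB2 plates on this scale, and the other 5 genes overlap. Of the 21416 genes tested, 5.11% show this split and 2.78% the opposite one. With TMM scaling Tectb and Otos overlap as well.

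Epyc was the member most even over Control plates. It stood at 860, 736 and 793 CPM on Control plates and at 266, 422 and 247 CPM on CA-ERBB2 plates, and it kept this split with TMM scaling, where Control plates lay at 661, 670 and 813 CPM and CA-ERBB2 plates at 201, 541 and 360. A split in this direction on the TMM scale was shown by 4.88% of all genes tested, and Epyc was the 1 member of 8 with it. Its log2 fold change was -0.96 (SE 0.50, adjusted p = 0.911, edgeR). The antisense Gm10754 followed Epyc closely: it had counts in 167 of the 181 cells with Epyc and in 1 further cell, and its counts were 25.6% of those of Epyc in Control and 43.2% in CA-ERBB2. The counting used strand, but whether the library kit keeps strand is not given in the sources used here, so the share of Epyc reads in Gm10754 is unknown.

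Coch stood at 564, 92.8 and 927 CPM on Control plates and at 488, 48.4 and 184 CPM on CA-ERBB2 plates, with overlap. Its log2 fold change of -1.07 (SE 0.84, adjusted p = 0.926, edgeR) was -0.13 without Control plate 3. Otos stood at 168, 214 and 166 CPM on Control plates and at 13.8, 24.6 and 100 CPM on CA-ERBB2 plates, again with all Control plates above. With TMM scaling CA-ERBB2 plate 3 came to 146 CPM and Control plate 1 to 129, and the genotypes overlapped. The log2 fold change of Otos was -1.40 (SE 0.81, adjusted p = 0.913, edgeR), and it was -2.96 without CA-ERBB2 plate 3 and -0.90 without CA-ERBB2 plate 1. The lateral greater epithelial ridge 3, outer sulcus and blood lists were lower on the same plates as Tectb, Epyc and Otos, and their part in these differences was not tested.

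Across the 8 members tested, 0 were called at an adjusted p under 0.05 with an absolute log2 fold change above 1, where edgeR called 1 of 21416 genes, 0.00467%. That gene was Serpinb2, named here because it was alone. DESeq2 called 1.19% of the genes it tested and 0 members. At an unadjusted p under 0.05, edgeR placed 1 member (Otoa, p = 0.0428) lower in CA-ERBB2, against 2.39% of all genes, and 0 members higher, against 2.77%. The fold changes of all 8 lay below 0, with a median of -1.32, while 50.8% of all genes lay below 0 and the median over all genes was -0.02. The 9 members together summed to 6050, 2598 and 5812 CPM on Control plates and to 2267, 1038 and 1803 CPM on CA-ERBB2 plates. Control plate 2, the plate with 23 low-count cells, was the only Control plate near the CA-ERBB2 range. In a plate sum, fewer cells of a type and less RNA per cell cannot be told apart.

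Of 15 other genes of the otic matrix, all were tested and 0 were called. They comprised collagens of types II, IX and XI and glycoproteins such as Oc90 and Strc. Their median log2 fold change was -0.56, with 10 of 15 below 0. It was 0.23, with 6 of 15 below 0, without Control plate 1, and it was -0.07 without Control plate 3, -0.10 without CA-ERBB2 plate 2 and -0.06 with every cell weighted equally. Tnc, which encodes the matrix glycoprotein tenascin C, lay on the other side: 241, 331 and 468 CPM on CA-ERBB2 plates and 62.8, 127 and 152 CPM on Control plates after TMM scaling. Its log2 fold change was 1.60 (SE 0.53, adjusted p = 0.911, edgeR), and its plates did not overlap, as for 4.2% of genes in that direction. Col9a2, a collagen IX chain of the tectorial membrane, had a log2 fold change of -0.07 (SE 0.58).

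The share of cells with at least 1 count separated the genotypes for Otos alone. Tectb was detected in 44, 30 and 27 of 59 cells on Control plates and in 48, 28 and 24 on CA-ERBB2 plates, means of 57.1% ± 15.4 and 56.5% ± 21.8 (SD, n = 3). Epyc was detected in 45, 25 and 17 Control cells and in 51, 27 and 16 CA-ERBB2 cells, and Tecta in 35, 10 and 26 against 54, 17 and 16. Otog (19, 7 and 14 against 32, 10 and 10), Otogl (22, 9 and 15 against 29, 12 and 5), Otoa (17, 6 and 5 against 20, 6 and 2) and Coch (27, 9 and 11 against 30, 14 and 11) overlapped as well. In each of these 7 genes plate 1, the plate with most genes per cell, had the most cells in both genotypes.

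Otos was detected in 26, 22 and 14 of 59 cells on Control plates and in 11, 11 and 10 on CA-ERBB2 plates. The mean share was 35.0% ± 10.4 in Control and 18.1% ± 0.979 in CA-ERBB2 (SD, n = 3), and no plates overlapped. The 2-sided exact permutation test gave p = 0.1, the smallest that 3 plates against 3 can give, in a family of 9 such comparisons. A split of shares in this direction was shown by 0.191% of the 21416 genes, and in the other direction by 1.25%. The Otos shares stayed apart when cells of at least 100000 counts were thinned to that depth (39.9% and 15.4%), without wells A12 to D12 (30.3% and 12.7%) and at a level of at least 100 CPM (12.99% and 5.08%). The blood list, higher on every Control plate, also moved with Otos from cell to cell. Otos was in 51.1%, 61.3% and 35.0% of Control cells with a blood count and in 20.4%, 44.4% and 32.3% of such CA-ERBB2 cells on plates 1 to 3. Among cells with no blood count it was in 21.4%, 10.7% and 17.9% of Control cells and in 10%, 7.32% and 0% of CA-ERBB2 cells. That 0 of 28 cells allows a share of up to 10.7%, which would reach the lowest Control plate. These last shares rest on 3, 3 and 7 Control cells and on 1, 3 and 0 CA-ERBB2 cells. Other members showed such a gap on some plates. On Control plate 2, Tectb was in 77.4% of cells with a blood count and 21.4% of those without, and Epyc in 64.5% and 17.9%. On Control plate 1 the order was reversed, at 71.1% and 85.7% for Tectb and 75.6% and 78.6% for Epyc.

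**Figure D2:**
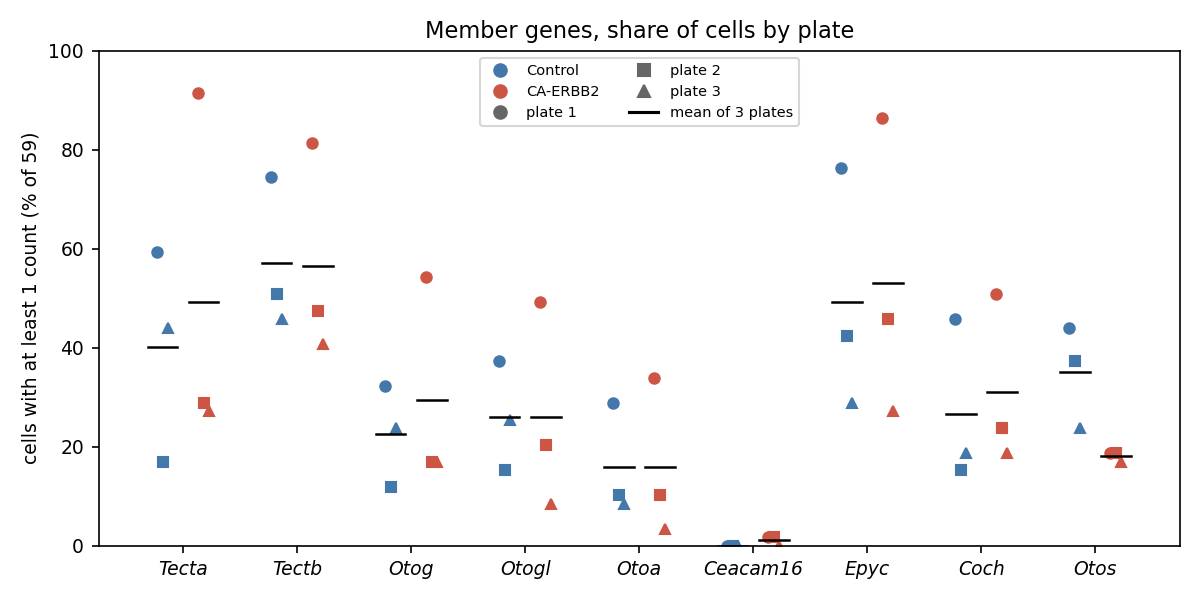
Share of the 59 cells of each plate with at least 1 count of each member, in percent, with Control in blue and CA-ERBB2 in red. Symbols mark plates 1 to 3 and lines the mean of 3 plates. Otos is the member whose Control plates (23.7% to 44.1%) lie above all CA-ERBB2 plates (16.9% to 18.6%). Of the 21416 genes tested, 0.191% show this split and 1.25% the opposite one.

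Cells were grouped into 5 clusters, named A to E, from all genes but the 9 members, so that the members could be read in clusters they had not shaped. Cluster D held 44 cells (21 CA-ERBB2 and 23 Control) and is supporting cell-like: Sox2, which marks the sensory epithelium, was in 88.6% of its cells, Fgfr3 in 84.1%, the Deiters cell gene Hes5 in 70.5% and Prox1 in 79.5%. Hair cell genes were also highest in cluster D. The 4 genes of the hair cell list were each in 15.9% to 27.3% of its cells, at a summed mean of 276 CPM. Of the inner hair cell list, 3 of 5 genes were in over 50% of its cells. Its first 5 leading genes were Trim36, Rassf10, Art1, Cutal and Gm20421, and Hes5 was the next. Cluster B held 108 cells (54 of each genotype) and is mesenchyme-like, with Pou3f4 in 92.6%, Tbx18 in 91.7% and Col1a2 in 98.1% of cells. It was led by Prss35, Cpm, Adamts20, Spc25 and Egflam. Genes of the lateral greater epithelial ridge lists 1 to 3 were also widespread in it, with 5 of 5, 4 of 4 and 4 of 4 in over 50% of its cells, against 5 of 5, 3 of 4 and 3 of 4 in cluster D. A mesenchyme-like group of this size was present although the sort was for cells with a history of Fgfr3-iCre, and 78 of its 108 cells came from plate 1.

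Clusters A, C and E were left unnamed. Cluster A (123 cells) had a median of 1878 genes per cell and was led by Gm29216, Ptgds, mt-Tp, Gm28438 and Hcfc1r1. Cluster C (49 cells, 41 of them Control) had a median of 13019 counts and was led by Gm26461, Gm22567, Gm24105, Rn7s6 and Gm24812. Cluster E (30 cells, 29 of them CA-ERBB2) was led by Gimap5, Il12a, Gm16104, Tspan32 and S100a4.

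Tecta, Tectb, Otog and Otogl, the main genes of the tectorial membrane in the list, were found in most cells of the supporting cell-like cluster D. Tecta and Tectb were each in 93.2% of its cells, Otog in 90.9% and Otogl in 86.4%. Cluster D was also richest in genes, with a median of 11592.5 per cell against 9181 in B, 3054.5 in E and 1878 in A. Over all cells, those with Tecta had a median of 9029.5 genes and the rest 1879. The part of gene number in the cluster shares was not tested. Cluster D was 44 of 354 cells and held 59.5% of all Otog counts, 52.0% of Otogl, 47.2% of Tectb and 35.8% of Tecta. The unnamed cluster A, with 123 cells, held 56.7% of Tecta counts, 44.3% of Tectb, 40.3% of Otogl and 35.8% of Otog. Tecta was in 32.5% of its cells, Tectb in 53.7% and Otog and Otogl each in 16.3%. Single cells weighed heavily here: on Control plate 1, 1 cluster A cell held 59.2% of the plate's Tecta counts. Likewise 1 cluster A cell held 53.7% of that plate's Otog counts. In the mesenchyme-like cluster B the same 4 genes were in 65.7%, 74.1%, 27.8% and 29.6% of cells, but at low level: its share of counts was 6.78% for Tecta, 6.45% for Tectb, 4.49% for Otog and 7.77% for Otogl. Otoa was in 38.6% of cluster D cells, and 76.6% of its counts lay there, most of them in a few cells of Control plate 1.

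Coch had the opposite placing. It was in 65.7% of cluster B cells at a mean of 650 CPM and in 20.5% of cluster D cells at 48.9 CPM, and cluster B held 59.6% of its counts against 1.91% for cluster D. Cluster A held 38.2% of the Coch counts, in 14.6% of its cells. On plate 3 cluster A held more Coch counts than cluster B: 85.5% against 12.6% in Control and 70.4% against 25.7% in CA-ERBB2. On CA-ERBB2 plate 2 they were close, at 48.2% and 47.5%. Otos was in 45.4% of cluster B, 36.4% of cluster D and 21.1% of cluster A cells, and its mean in cluster D was 12.1 CPM. Cluster A held 58.9% of its counts, cluster B 33.4% and cluster D 1.79%. Epyc belonged to neither side: it was in 85.2% of cluster B cells and 72.7% of cluster D cells, at means of 295 and 939 CPM, and cluster A held 44.5% of its counts. The medians went the other way, 46.7 CPM in cluster B and 9.03 in cluster D, and 41.7% and 20.5% of cells reached 100 CPM. In cluster D 1 cell of Control plate 1 reached 21464 CPM and held 48.1% of that plate's Epyc counts. Cluster C had almost none of the 9 genes, although 1 cell of 205131 counts reached 106756 CPM of Tectb and 1 cell of 42373 counts reached 26668 CPM of Otoa. Another, of Control plate 2, reached 6635 CPM of Otos, the highest of any cell, and held 19.6% of that plate's Otos counts.

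**Figure D3:**
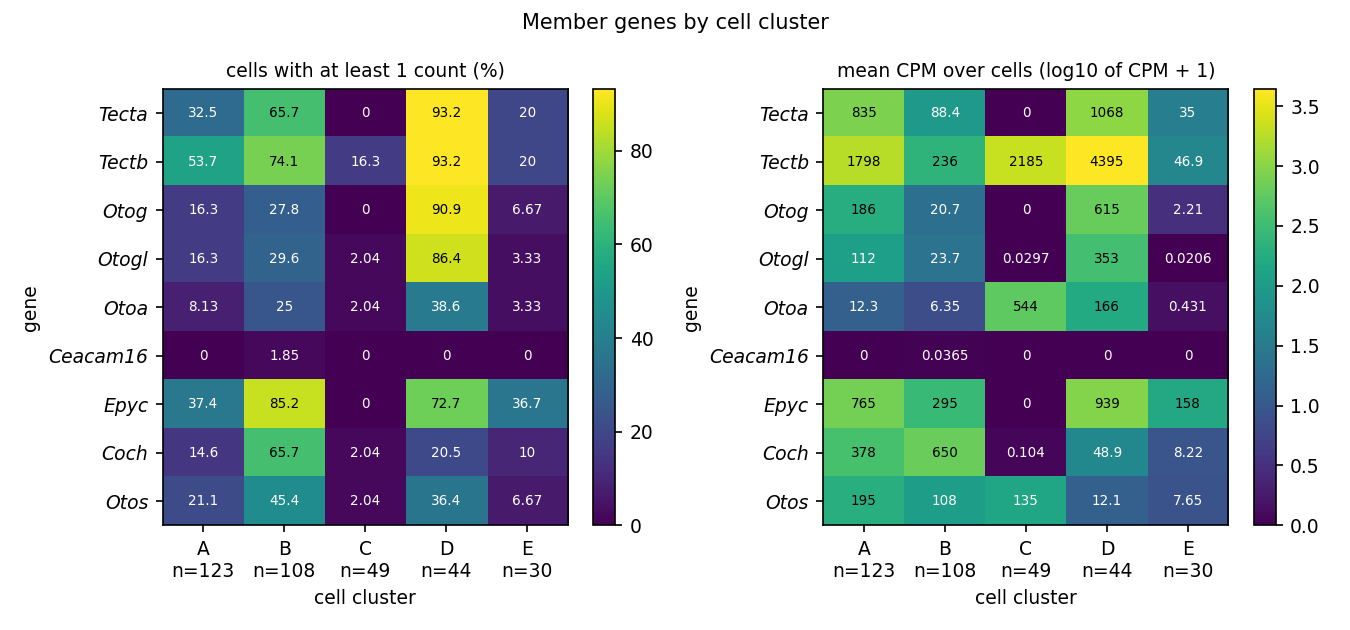
Members by cell cluster, with the share of cells with at least 1 count in percent on the left and the mean CPM over cells, coloured by log10 of CPM + 1, on the right; numbers in the squares are the values. Tecta, Tectb, Otog and Otogl are highest in cluster D, at 86.4% to 93.2% of its cells, and Coch in cluster B.

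Within cluster D, Tectb stood at 7404, 4038 and 6126 CPM in the 11, 5 and 7 Control cells of plates 1 to 3. In the 16, 4 and 1 CA-ERBB2 cells it stood at 1757, 1464 and 34.8 CPM. Every Control plate was above every CA-ERBB2 plate, as for 5.63% of the 21416 genes in cluster D cells (3.44% in the other direction), and the shares of these cells with Tectb were close, 23 of 23 in Control and 18 of 21 in CA-ERBB2. Otog stood at 632, 177 and 523 CPM in Control cluster D cells and at 847, 272 and 7.96 CPM in CA-ERBB2 ones, and Otogl at 526, 88.0 and 345 against 362, 147 and 14.8 CPM, and both overlapped. Tecta stood at 1984, 112 and 768 CPM against 1014, 492 and 35.7 CPM and overlapped as well. The third CA-ERBB2 plate gave 1 cell, in which all 4 genes had their lowest value, and no test was made on these values. In cluster B, Coch stood at 668, 286 and 781 CPM in Control and at 733, 176 and 222 CPM in CA-ERBB2, with overlap.

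Cluster E, nearly all of it CA-ERBB2, was poor in the tectorial membrane genes. Tecta and Tectb were each in 20.0% of its 30 cells, Otog in 6.67% and Otogl in 3.33%, while Epyc was in 36.7%. These cells came from plates 2 and 3 (16 and 13 CA-ERBB2 cells, and 1 Control cell of plate 2). Over all CA-ERBB2 cells of plates 2 and 3, Tecta was in 28.8% and 27.1% and Tectb in 47.5% and 40.7%. Otog was in 16.9% on each and Otogl in 20.3% and 8.47%. Against CA-ERBB2 cells of cluster A on plates 2 and 3, cluster E was clearly lower for Tectb only. Tectb was in 15 of 29 and 13 of 32 cluster A cells against 3 of 16 and 2 of 13 in cluster E. For Tecta these were 6 of 29 and 9 of 32 against 3 of 16 and 3 of 13. For Otogl they were 4 of 29 and 2 of 32 against 1 of 16 and 0 of 13, and for Otog 3 of 29 and 6 of 32 against 1 of 16 and 1 of 13. Cells with at least 100 CPM each of Spp1, Timp1, Mmp9 and Dmp1, a secreted network of integrin ligands, matrix metalloproteinase and inhibitor, numbered 36, all CA-ERBB2 (0 of 177 Control cells). At 100 CPM or more, Otogl was in 0 of these 36 cells (a limit of 8.33%) and Otog in 1, against 26 and 27 of the other 141 CA-ERBB2 cells. Tecta reached that level in 3 of 36 against 44 of 141, and Tectb in 9 of 36 against 45 of 141. Of the network cells 33 came from plates 2 and 3, where the members were scarcer in other cells too: Tecta reached 100 CPM in 32 of 56 other cells of plate 1 but in 7 of 45 and 5 of 40 on plates 2 and 3. At 100 CPM, Otogl was in 18 of 56, 7 of 45 and 1 of 40 other cells of plates 1 to 3. Otog was in 17 of 56, 6 of 45 and 4 of 40, and its 1 network cell was on plate 1. At least 1 count of Otogl was in 2 of 3, 3 of 14 and 3 of 19 network cells. Among the others it was in 27 of 56, 9 of 45 and 2 of 40. For Otog these were 2 of 3, 2 of 14 and 4 of 19 against 30 of 56, 8 of 45 and 6 of 40. Within plates the contrast for the tectorins varied. Tectb reached 100 CPM in 1 of 3 network cells against 22 of 56 others on plate 1, in 6 of 14 against 10 of 45 on plate 2 and in 2 of 19 against 13 of 40 on plate 3. Tecta reached it in 1 of 3, 2 of 14 and 0 of 19 network cells, and at least 1 count of Tecta was in 3 of 3, 6 of 14 and 6 of 19 of them against 51 of 56, 11 of 45 and 10 of 40 other cells.

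Member followed member across cells in the same way. Over the 319 cells with at least 100000 counts, Spearman's rho of CPM was taken within each plate and averaged over the 6 plates. Otog and Otogl had the highest mean among the members, 0.66 (plate range 0.24 to 0.84), followed by Tecta and Otog at 0.60, Tecta and Otogl at 0.55, Tectb and Otog at 0.46, and Tectb with Otogl and with Tecta at 0.41 each. Of 92 cells with Otog, 84 also had Tecta (91.3%), which was 53.2% of the 158 cells with Tecta. Coch and Otos followed at 0.35, close to Otoa with Tecta and with Otog at 0.34 each. Coch had means of 0.06 with Otog and 0.01 with Otogl, and Epyc had 0.07 with each. For comparison, the median rho with all genes was 0.22 for Otog, 0.20 for Tecta, 0.18 for Coch, 0.14 for Otoa and 0.11 for Epyc. When all genes were ranked by rho with Tecta, Otog was at rank 1, Otogl at 7 and Tectb at 347. By rho with Tectb, Otog was at rank 2 and Otogl at 14, and by rho with Otog, Otogl was at 10.

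**Figure D4:**
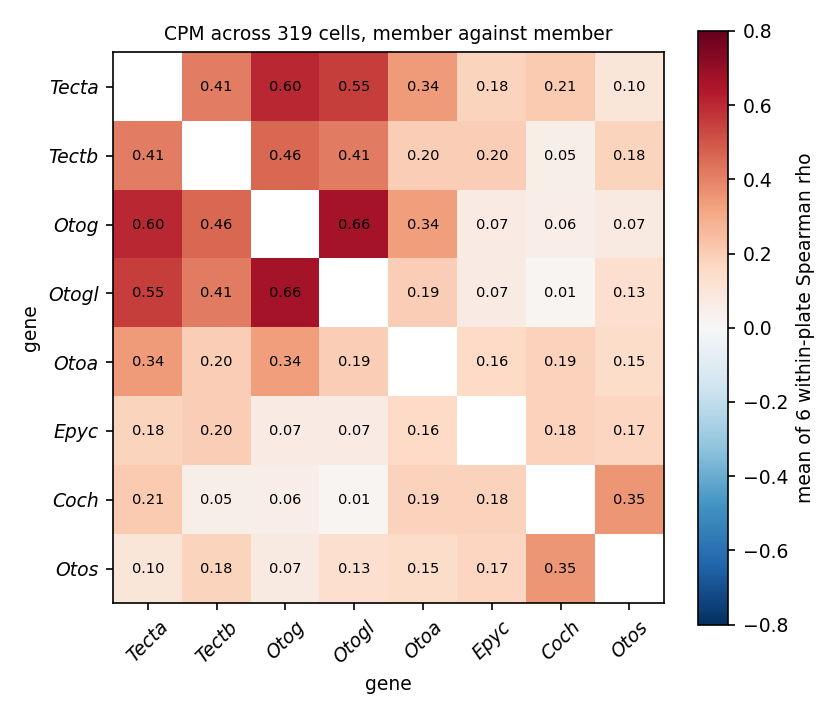
Mean over 6 plates of the within-plate Spearman rho of CPM between members, over 319 cells with at least 100000 counts. The pairs among Tecta, Tectb, Otog and Otogl (0.41 to 0.66) are the highest between members. Coch with Otos is at 0.35, and Otoa with Tecta and with Otog at 0.34 each.

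The genes most like each member were read from the same measure over 18055 genes. Slitrk6, which encodes a membrane protein with a part in inner ear innervation, was among the first 5 for Tecta (0.56), Tectb (0.45), Otog (0.74) and Otogl (0.72). Tecta had Otog first, then Esrp1, an epithelial splicing factor, Ntf3, which encodes neurotrophin 3, Slitrk6 and Cmtm8 (0.56 to 0.60). Tectb had Cyp26b1, which breaks down retinoic acid, then Otog, Slitrk6, the tight junction gene Cldn9 and Uchl1os (0.43 to 0.46). After Slitrk6, Otog had Marveld3, of tight junctions, Gm49890, Ush1c, which encodes harmonin, and Uchl1os (0.70 to 0.74). Otogl had Esrp1 at 0.75, then Slitrk6, Agr3, Gm13782 and Uchl1os at 0.70 to 0.72.

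The other members had other neighbours. Epyc had the overlapping Gm10754 at 0.95, and its next were Lum, a proteoglycan of its own family, Chdh, Eno3 and Pdgfc, at 0.32 to 0.33. Coch had Cacna1e (0.57), Arhgap28, Glrb, Crym and Adamts12 (0.53 to 0.56). Otos had Cytl1 (0.42), Gm5089, Trf, which encodes transferrin, Gm525 and Lrrc70 (0.39 to 0.41). Otoa, with 55 cells, had 9630001P10Rik, Rprm, Map9, 9130019O22Rik and Marveld2 at 0.37 to 0.40, and its plate values ranged from -0.06 to 0.79. Without wells A12 to D12, Slitrk6 remained among the first 5 of Tectb and Otog but not of Tecta and Otogl. The first 5 of Otogl were then all replaced. Tecta kept Otog, Ntf3 and Cmtm8, Otoa kept Rprm and Map9, and Epyc kept Gm10754 and Lum. Coch kept Cacna1e, Arhgap28, Crym and Glrb, and Otos kept Cytl1, Gm5089 and Trf. Against summed cell type lists, Otog had its highest mean rho with the supporting cell list (0.55), Otogl with the Deiters cell list (0.56) and Coch with the endothelium (0.34) and mesenchyme (0.30) lists. Otos had its highest with the blood list (0.30). The number of genes detected in a cell, by the same measure, had mean rho of 0.49 with Otog, 0.47 with Otogl, 0.43 with Tecta and 0.29 with Tectb. It had 0.25 with Coch and 0.21 with Otos.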

How the data were processed

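The deposited files held whole-number counts of reads per gene, 1 file per well. The authors demultiplexed with bcl2fastq 2.19.1, trimmed with fastp, aligned with STAR 2.7.6a to GRCm38 and counted exons by gene name and strand with featureCounts of Subread 2.0.1, and the counts were not normalized. Counts of the 59 cells of a plate were summed, and the plate was the replicate. P-values measure the spread between plates of pooled pups. The main test was edgeR 4.0.16 (quasi-likelihood, TMM, filterByExpr) over all genes, with Benjamini-Hochberg adjustment, a threshold of 0.05 and an absolute log2 fold change above 1. The test was checked on simulated data, where it recovered 53% of 100 genes changed 8-fold and 99% of 100 changed 64-fold. Changes smaller than 8-fold were not simulated, so a member not called may still differ. Detection meant at least 1 count. Shares of cells were compared by an exact 2-sided permutation test over plates. Intervals and limits (3 counts) cover counting error only. Clusters came from Seurat 5.3.0 (2000 variable genes, 30 components, resolution 0.6) without the members; no doublet caller was run on the sorted wells. Leading genes of a cluster were those in at least 25% of its cells with the highest ratio of mean CPM + 1. The study states more cells than the 354 analysed here. Named genes were the members, Erbb2, the other matrix genes, the 5 genes most like each member and the 5 leading genes of each cluster. The members, lists and tests were chosen with earlier results of these data known, and the motif TATANA after TATAAA had matched no member. Alternatives were DESeq2 1.42.0, no filter, no TMM, equal weight for cells (limma 3.58.1), filters on cells or wells and each plate left out.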

Additional observations from a re-analysis of the deposited data

How the results depend on the processing

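In all, 14 alternatives to the edgeR fit were run for each of 8 members, and 0 called any of them. The log2 fold change stayed below 0 in all 14 for every member but Otog, which was 0.12 with cells of at least 100000 counts and under 20% mitochondrial counts. Adjusted p-values ranged from 0.0884 (Otoa with no filter on low counts) to 1.00. The number of all genes called was 1 in the main fit, 233 with DESeq2, 285 with no filter and 0 with every cell weighted equally, and it was 0 to 2 with 1 plate left out. Without TMM the median log2 fold change of all genes moved from -0.02 to -0.27, and Tectb came to -1.67, Epyc to -1.35 and Otos to -1.98.

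Shares of cells differed, CA-ERBB2 minus Control, by less than the spread between plates for every member but Otos and Ceacam16 (seen in 2 cells), so the sign of several was unsettled. In percentage points, Tectb was -0.565 and 0.565 at a level of at least 100 CPM. Epyc was 3.95, but -4.24 when thinned, -3.39 at 100 CPM and -6.25 with the cell filter. Coch was 4.52, but -0.565 at 100 CPM, -0.22 with the cell filter and -1.40 in cells with no blood count, an alternative added after seeing the data. With 1 plate left out, the differences ranged from -12.1 to 20.1 for Tecta, -12.99 to 8.19 for Tectb, -5.65 to 12.99 for Otog, -12.7 to 17.5 for Epyc, -5.37 to 14.1 for Coch and -22.6 to -12.4 for Otos. The summed level of the 9 members was lower in CA-ERBB2 by 2502 to 4228 CPM in the same way. At resolution 0.2 clusters A and E merged, giving 4 clusters, and B and D kept the same cells.

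The plates share replicate numbers, and the study describes 3 independent sorts with littermate Controls, but the sources used here do not tie a plate number to a sort or litter. Deviations of same-numbered plates correlated at 0.215, 0.0822 and 0.0773, and each plate correlated best with its own number. With the replicate block edgeR called 1 gene and 0 members; Tectb was -1.42 (unadjusted p = 0.00358), Otos -2.21 (0.0256), Epyc -1.07 (0.0298) and Tecta -0.59 (0.487), with adjusted p = 0.989 for each. The block with wells A12 to D12 left out, added after seeing the data, called 0 genes. For Otos shares, the sign-flip test of 3 pairs gave p = 0.25, the smallest it can. The cause of these shifts was not tested. Ceacam16, with 12 counts, could not be compared at this depth.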
